A study of Mus musculus with 6 samples.

Results

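The genes described here encode chains of the receptors for the common gamma chain cytokines and for IL-18, with the signaling chain of the IL-12 receptor. Members were taken by symbol from a named list: Il2ra, Il2rb, Il2rg, Il7r, Il4ra, Il15ra, Il21r, Il18r1, Il18rap and Il12rb2, 10 genes, each found once in the files. The study made single-cell RNA libraries (PIPseq v3) from CD8+ T cells of mice, 6 in all: thymus, spleen and tumor, each with 1 library labelled Pdcd1fl/fl and 1 labelled Pdcd1 cKO. Tumor libraries came from B16-OVA tumors, a mouse melanoma line that expresses ovalbumin, taken on day 12 after injection, with 3 mice pooled per library, while each thymus and spleen library came from 1 mouse at baseline. All mice were C57BL/6 adults older than 8 weeks, both groups carry floxed Pdcd1 alleles on both chromosomes, and the controls lack Cre. Mice labelled Pdcd1 cKO also carry the E8I-Cre transgene, whose Cd8a enhancer becomes active only after positive selection in the thymus, so that thymocytes at earlier stages keep the floxed gene. With 1 library per group no test between groups was possible. The 95% intervals, where given, cover counting error only, not differences between mice.

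Each of these cytokines binds a receptor built from shared parts. The common gamma chain (Il2rg) joins a private alpha chain for IL-4, IL-7 or IL-21, and joins the beta chain Il2rb for IL-2 and IL-15, whose alpha chains Il2ra and Il15ra raise the affinity, and the complexes signal through Jak1, Jak3 and STAT proteins to support survival and division of CD8 T cells. IL-18 binds Il18r1, recruits the accessory chain Il18rap and signals through Myd88, and together with IL-12, whose receptor holds Il12rb2, it raises interferon gamma output of effector T cells.

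Pdcd1, the gene the labels refer to, was checked first. In CD8-positive cells it gave 2.46 CPM (9 UMIs) and 9.16 (116) in thymus, 0.724 (1) and 12.2 (89) in spleen and 105 (702) and 113 (799) in tumor, the library labelled Pdcd1fl/fl first in each pair. Pdcd1 RNA was thus higher under the cKO label in thymus and spleen and level between labels in the tumor, so that this RNA does not show the loss that the cKO label names, but gene counts do not say which exons the UMIs come from, and UMIs from outside the deleted part check nothing. The paper reports loss of PD-1 in thymic CD8 T cells by flow cytometry, and PD-1 deficiency in CD8 T cells of B16-OVA tumors. It also reports higher Nkg7 RNA in cKO mice. In CD8-positive cells here Nkg7 stood at 306 and 410 CPM in thymus, 1283 and 1834 in spleen, and 897 and 1980 in tumor, which does not read the Pdcd1 genotype itself. PD-1 protein was not analysed here, and the labels were not tested further. For this reason libraries are called fl/fl-labelled and cKO-labelled below, pairs of values always give the fl/fl-labelled library first, and since all 3 pairs are affected no comparison of labels can be given without them. Over all cells Ddx3y stood at 242 to 455 CPM and Xist at 0 to 0.784 CPM in the 6 libraries, so that each holds male cells and next to no Xist, while the other Y genes were lower in the tumor: Eif2s3y stood there at 12.7 and 18.5 CPM against 67.6 to 86.5 elsewhere, Kdm5d at 1.39 and 2.15 against at least 7.96, and Uty at 4.48 and 3.91 against 23.2 to 32.0. The spleen libraries share 2 barcodes with each other and no other pair shares any.

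The authors' filter of at least 500 genes, at least 1000 UMIs (unique molecular identifiers, 1 per captured RNA copy) and at most 20% mitochondrial UMIs left 1067 of 1067 and 2635 of 2674 barcodes in thymus, 1478 of 6929 and 4928 of 4963 in spleen, and 456 of 457 and 561 of 561 in tumor. No doublets were removed and no doublet caller was run. A cell with at least 1 UMI of Cd8a or Cd8b1 is called CD8-positive, and these were 589 and 1753 cells in thymus, 863 and 3885 in spleen, and 344 and 512 in tumor. The remaining 478, 882, 615, 1043, 112 and 49 cells have no CD8 RNA. Depth differs strongly: CD8-positive cells had median totals of 4353 and 5486 UMIs in thymus, 1374 and 1686 in spleen, and 13497 and 9580 in tumor. A UMI of Cd3d, Cd3e, Cd3g or Trac was found in 93.7% to 99.8% of CD8-positive cells of each library, and in 75.0% of the CD8-negative cells of the fl/fl-labelled tumor, the lowest share. Levels below are sums of raw UMIs over the cells of a library, given per 1000000 UMIs of the same cells (CPM), ratios are log2 ratios of CPM, and a gene is called higher or lower at 2-fold or more when both sums together hold at least 20 UMIs.

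**Figure D1:**
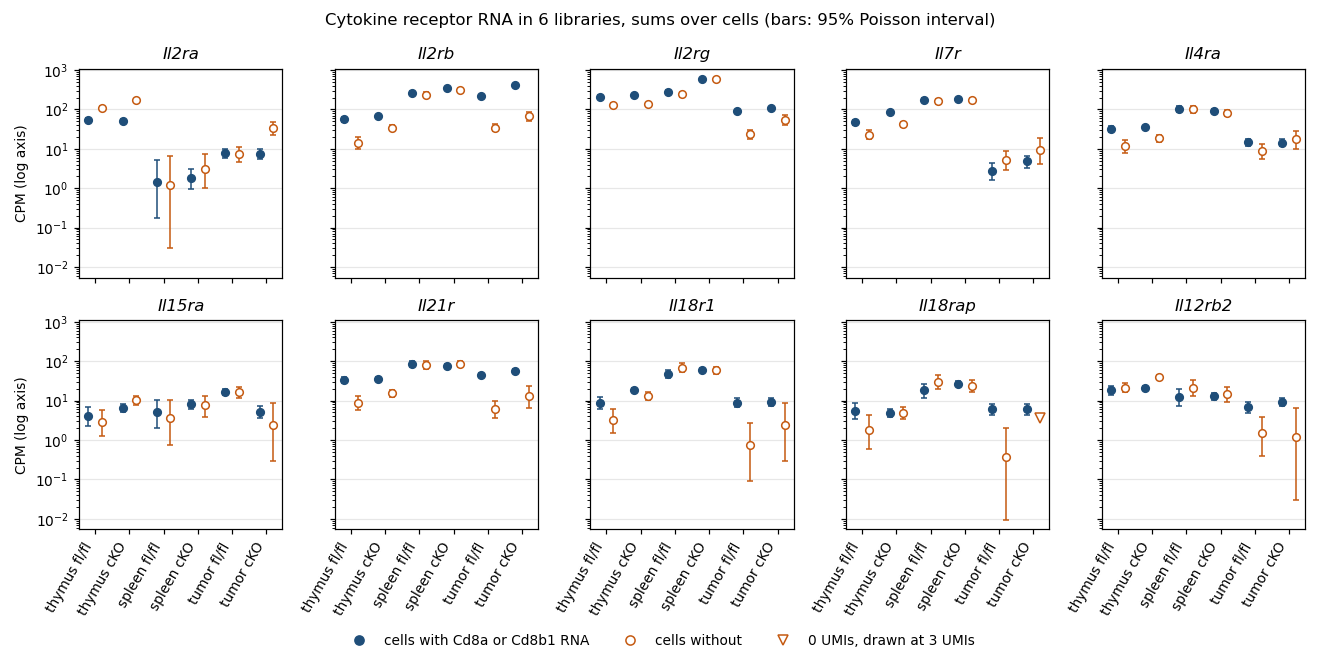
CPM of the 10 receptor genes in each library, in cells with and without Cd8a or Cd8b1 RNA, with 95% Poisson intervals.

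Il2rb, the beta chain that IL-2 and IL-15 share, stood in CD8-positive cells at 55.5 CPM (203 UMIs) and 66.2 (838) in thymus, 257 (355) and 351 (2569) in spleen, and 226 (1504) and 413 (2925) in tumor. Its RNA is low in the thymus and high in spleen and tumor, with the cKO-labelled tumor highest. From highest to lowest the order is cKO-labelled tumor, cKO-labelled spleen, fl/fl-labelled spleen, fl/fl-labelled tumor, cKO-labelled thymus and fl/fl-labelled thymus, and intervals of neighbors overlap only between the middle pair and between the thymus libraries. Spleen over thymus, the log2 ratio of Il2rb was 2.21 (1.96 to 2.47) under the fl/fl label and 2.41 (2.29 to 2.52) under the cKO label. Tumor over spleen, it was -0.19 (-0.36 to -0.02) and 0.24 (0.16 to 0.31), so that over all CD8-positive cells the step from thymus to spleen is large and the step from spleen to tumor is small. Among cells without Dntt and Rag1 RNA the spleen over thymus ratios of Il2rb were 0.89 and 1.74, and the first is short of 2-fold. Between labels, cKO over fl/fl, Il2rb gave 0.25 (0.03 to 0.48) in thymus, 0.45 (0.29 to 0.61) in spleen and 0.87 (0.78 to 0.96) in tumor. All 3 intervals lie above 0 and none reaches 2-fold, but with the same cells thinned to 1000 UMIs each the thymic ratio of Il2rb was 0.01. With the CD8 rule applied after thinning too, which leaves 241 and 894 thymic cells, it turned to -0.26. In the tumor the size of this ratio moved with the cells counted: in the 276 and 458 cells whose T cell markers outnumber melanoma and macrophage markers it was 0.47 (0.38 to 0.56), at 398 and 551 CPM. It passed 2-fold when scaled by the median of ratios, at 1.01, in the 68 and 54 cells whose T markers do not lead, at 1.93 (1.29 to 2.61), in cells without Mki67 and Top2a RNA, at 1.06 (0.93 to 1.18), and over all tumor cells with and without CD8 RNA, at 1.14 (1.06 to 1.23). It was lowest in cells with Ccr7 or Lef1 RNA, at 0.35 (0.19 to 0.51). In the cells whose T markers lead, the tumor over spleen ratios of Il2rb were 0.63 and 0.65, which turns the fl/fl-labelled one upward.

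Il2rb was also spread over many cells. With every cell thinned to 1000 UMIs, and in brackets unthinned, the share of CD8-positive cells with an Il2rb UMI was 7.64% (23.1%), 8.04% (28.8%), 22.5% (30.6%), 27.9% (41.7%), 24.4% (77.6%) and 39.1% (92.0%) from thymus to tumor. At equal depth the share rises from thymus to spleen, and the cKO-labelled tumor is highest. As background, 17 cells of the fl/fl-labelled tumor with melanoma markers and no CD8 RNA (median 11823 UMIs, near the 13497 of its CD8-positive cells) gave 0 of 17 thinned, with a 95% interval up to 19.5%, and 11.8% unthinned. Single cells held up to 28 Il2rb UMIs in the fl/fl-labelled tumor and up to 53 in the cKO-labelled tumor, where 377 of 512 cells held at least 3.

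Il2rg, the common gamma chain itself, stood at 213 CPM (777 UMIs) and 231 (2919) in thymus, 284 (392) and 607 (4444) in spleen, and 88.9 (593) and 109 (773) in tumor. The spleen is highest and the tumor lowest, and within the spleen the cKO-labelled library stands well above the other. The order is cKO-labelled spleen, fl/fl-labelled spleen, cKO-labelled thymus, fl/fl-labelled thymus, cKO-labelled tumor and fl/fl-labelled tumor, and only the thymus pair overlaps. Tumor over spleen, Il2rg fell to -1.67 (-1.86 to -1.49) and -2.47 (-2.59 to -2.36), past 2-fold under both labels. With only cells whose T markers lead, the fl/fl-labelled fall was -0.89, which is short of 2-fold. Between labels the ratio was 0.12 (0.0021 to 0.23) in thymus, 1.10 (0.95 to 1.25) in spleen and 0.30 (0.14 to 0.45) in tumor, so that the spleen alone passes 2-fold. Splenic cells without CD8 RNA gave a ratio of 1.26 (1.04 to 1.48) for Il2rg, as large as in CD8-positive cells. The splenic ratio of Il2rg was 0.97 (0.79 to 1.15) among cells with Ccr7 or Lef1 RNA and 1.36 (1.09 to 1.64) among cells without. Scaling by the median of ratios put it at 0.92, a total without mitochondrial, ribosomal and Malat1 UMIs put it at 0.96, and a stricter cell filter (at least 1000 genes and at most 10% mitochondrial UMIs) put it at 0.75, each of which ends the 2-fold call. In the tumor the sign of the Il2rg ratio turned in cells whose T markers lead, to -0.17 (-0.34 to -0.01), and in the others it was 2.07 (1.42 to 2.77). Shares of cells with an Il2rg UMI, thinned and in brackets unthinned, were 22.4% (62.6%), 23.1% (71.0%), 21.1% (29.0%), 42.7% (60.1%), 11.9% (67.4%) and 10.7% (66.8%). At equal depth Il2rg is thus found most often in the cKO-labelled spleen and least often in both tumor libraries, and 0 of the 17 melanoma-marker cells held it after thinning (5.88% unthinned).

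Cells with UMIs of both Il2rb and Il2rg, the chains that an IL-2 or IL-15 receptor needs, numbered 13 of 589, 36 of 1753, 41 of 863, 480 of 3885, 10 of 344 and 30 of 512 after thinning. Unthinned, the counts were 96, 390, 89, 1045, 202 and 323 cells. Among cells with Il2rb, 28.9%, 25.5%, 21.1%, 44.3%, 11.9% and 15.0% held Il2rg after thinning, beside 22.4%, 23.1%, 21.1%, 42.7%, 11.9% and 10.7% of all CD8-positive cells. The shares lie close together in most libraries, so that finding one chain in a cell says little about finding the other at this depth.

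Il2ra encodes the alpha chain of the high-affinity IL-2 receptor (CD25). Its level was 54.2 CPM (198 UMIs) and 52.0 (659) in thymus, 1.45 (2) and 1.77 (13) in spleen, and 7.65 (51) and 7.35 (52) in tumor. The thymus is highest, the tumor is low and the spleen is at the edge of detection, and the labels overlap within each tissue. Spleen over thymus, Il2ra gave -5.23 (-8.28 to -3.35) under the fl/fl label and -4.87 (-5.79 to -4.09) under the cKO label. The first rests on 2 splenic UMIs and its interval is wide, and under both labels the spleen is far lower. Tumor over spleen, Il2ra gave 2.40 (0.47 to 5.48) and 2.05 (1.15 to 3.05). Ratios of Il2ra between labels stayed near 0 in the thymus, at -0.06 (-0.29 to 0.18), and in the tumor, at -0.06 (-0.64 to 0.53), but in the same thymic cells thinned the ratio of Il2ra was 1.01, past 2-fold. In cells without CD8 RNA the picture differs: Il2ra stood at 106 CPM (291 UMIs) and 169 (1098) in thymus, 1.19 (1) and 3.13 (5) in spleen, and 7.37 (20) and 33.0 (28) in tumor. Thymic cells without CD8 RNA carry more Il2ra than those with it. With all cells counted, so do the 49 such cells of the cKO-labelled tumor, where Foxp3, at 9.43 CPM, led the CD4 and regulatory T cell markers. Among cells whose T markers lead, both tumor libraries had this direction. The CD8-positive over CD8-negative ratios of Il2ra were then -3.33 and -4.71, with 13 CD8-negative cells in each library. At equal depth an Il2ra UMI was found in 2.38% (19.7%) and 5.19% (18.0%) of thymic CD8-positive cells and in 11.5% (31.2%) and 15.8% (46.6%) of those without CD8 RNA, unthinned shares in brackets. A UMI of Il2ra and one of Il2rb met in 23 of the 116 and 66 of the 316 thymic cells with Il2ra, unthinned, which is 19.8% and 20.9% of them, beside 23.1% and 28.8% of all thymic CD8-positive cells with Il2rb. In the thymus the alpha and beta chains therefore do not gather in the same cells.

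Il15ra, the alpha chain that binds IL-15 and can present it to neighboring cells, stood at 4.10 CPM (15 UMIs) and 6.40 (81) in thymus, 5.07 (7) and 8.19 (60) in spleen, and 16.6 (111) and 5.23 (37) in tumor. The fl/fl-labelled tumor is highest and stands apart, while intervals of all neighbors among the other 5 libraries overlap. Between labels the tumor ratio was -1.67 (-2.25 to -1.12), the only fall past 2-fold in CD8-positive cells. Il15ra in the thymus gave 0.64 (-0.17 to 1.54) and in the spleen 0.69 (-0.44 to 2.07), both with 0 inside the interval. The tumor difference had the same direction in cells without CD8 RNA, at 16.2 CPM (44 UMIs) and 2.36 (2) and a ratio of -2.78 (-5.87 to -0.84). In cells whose T markers lead, the tumor ratio of Il15ra was -1.53 (-2.18 to -0.90), and in the remaining 68 and 54 cells -2.53 (-4.22 to -1.20). Among tumor cells with Mki67 or Top2a RNA it was -2.31 (-3.51 to -1.27) and among those without it was -1.35 (-2.05 to -0.67). Il15ra is thus lower under the cKO label on either side of each of these splits. When every cell with at least 2 UMIs of another lineage was left out, 54 and 165 tumor cells remained and the ratio was -0.08, which ends the call. These cells hold 500732 and 1485481 UMIs of all genes, so that this value rests on few Il15ra UMIs. In all CD8-positive tumor cells thinned to 1000 UMIs the ratio was -3.16, and in the 143 and 290 cells that stay CD8-positive after thinning -1.02, both on too few UMIs for a call. Shares of tumor CD8-positive cells with an Il15ra UMI were 1.74% (24.4%) and 0.195% (6.45%), thinned and in brackets unthinned, against 0 of 17 melanoma-marker cells either way.

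**Figure D2:**
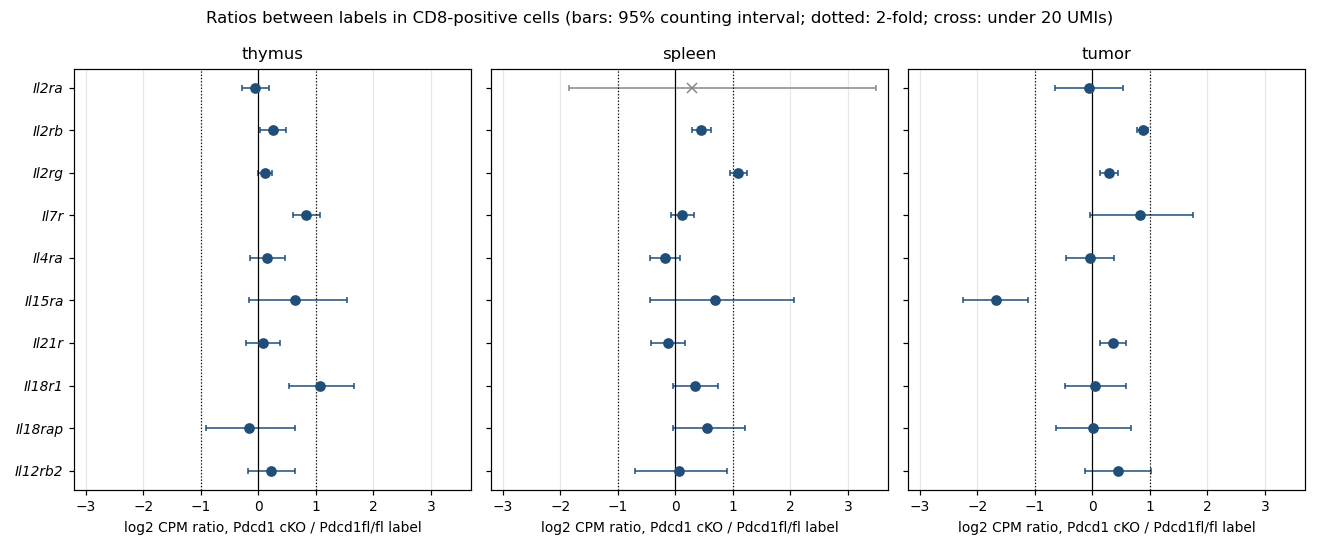
Log2 CPM ratios of the cKO-labelled over the fl/fl-labelled library in CD8-positive cells of each tissue, with 95% counting intervals.

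Il7r encodes the alpha chain of the IL-7 receptor, which also serves in the receptor for TSLP. It stood at 47.1 CPM (172 UMIs) and 84.0 (1064) in thymus, 172 (237) and 186 (1363) in spleen, and 2.70 (18) and 4.80 (34) in tumor. Il7r is highest in the spleen, intermediate in the thymus and close to absent from the tumor. From highest to lowest, the splenic libraries overlap, then come the cKO-labelled and the fl/fl-labelled thymus, which are apart, and the tumor pair, which overlaps. Tumor over spleen, Il7r gave -5.99 (-6.77 to -5.30) and -5.28 (-5.81 to -4.79), the largest falls among the 10 genes. Il7r between labels was 0.84 (0.60 to 1.08) in thymus, 0.12 (-0.08 to 0.32) in spleen and 0.83 (-0.03 to 1.74) in tumor. Only the thymic interval excludes 0, and its ratio lies near 2-fold: it was 1.01 when scaled by the median of ratios and 1.04 on a total without mitochondrial, ribosomal and Malat1 UMIs. In the same cells thinned the Il7r ratio was 0.61, and in the 241 and 894 cells that stay CD8-positive after thinning 0.09. In thymic cells without Dntt and Rag1 RNA the ratio of Il7r was 0.26 (-0.05 to 0.58), with 0 inside its interval, and in cells with that RNA 0.99 (0.63 to 1.37). In the tumor 20 of the 34 Il7r UMIs of the cKO-labelled library came from the 54 cells whose T markers do not lead, and in the other 458 cells the ratio turned to -0.48 (-1.66 to 0.70). Thinned and in brackets unthinned, 5.77% (19.4%), 8.39% (34.7%), 14.6% (21.1%), 15.9% (25.5%), 0.291% (4.94%) and 0.977% (3.71%) of CD8-positive cells held an Il7r UMI. Unthinned, 1 of the 17 melanoma-marker cells of the fl/fl-labelled tumor (5.88%) held Il7r too, so that the Il7r share of that library does not stand above this background. The cKO-labelled tumor held 1 such cell, too few for a background of its own. In the cKO-labelled tumor Il7r went with Ccr7 or Lef1 RNA, at 11.1 against 1.86 CPM (25 and 9 UMIs), a ratio of 2.58 (1.43 to 3.86). Of these 34 Il7r UMIs 58.8% lie in 5 cells and 11 in a single cell, so that few cells carry this ratio. Il7r and Il2rb met in 44 of 114 and 228 of 608 thymic cells with Il7r, unthinned, 38.6% and 37.5%, beside 23.1% and 28.8% of all thymic CD8-positive cells with Il2rb.

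Il4ra, the alpha chain for IL-4 and also part of the IL-13 receptor, stood at 32.0 CPM (117 UMIs) and 35.5 (450) in thymus, 105 (145) and 92.7 (679) in spleen, and 14.7 (98) and 14.3 (101) in tumor. The spleen is highest, the thymus intermediate and the tumor lowest, labels overlap within each tissue and the tissues do not overlap. Its tumor over spleen ratios were -2.84 (-3.22 to -2.46) and -2.70 (-3.02 to -2.40), and spleen over thymus it gave 1.71 (1.35 to 2.08) and 1.38 (1.21 to 1.56). Ratios of Il4ra between labels were 0.15 (-0.15 to 0.46), -0.18 (-0.44 to 0.09) and -0.04 (-0.46 to 0.37) in thymus, spleen and tumor. None excludes 0, but the tumor ratio of Il4ra turned with the cells counted. It was -0.62 (-1.08 to -0.16) in the cells whose T markers lead, 1.58 (0.51 to 2.72) in the others, and 2.02 in the 54 and 165 cells left without cells of another lineage.

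Il21r, the private chain for IL-21, stood at 33.7 CPM (123 UMIs) and 35.7 (452) in thymus, 84.0 (116) and 76.9 (563) in spleen, and 43.9 (293) and 56.2 (398) in tumor. Levels of Il21r are highest in the spleen, and the tumor libraries lie between those of spleen and thymus, with overlap of the intervals of the fl/fl-labelled tumor and the cKO-labelled thymus. Il21r differed less between spleen and tumor than Il4ra, Il7r or Il2rg, with tumor over spleen ratios of -0.93 (-1.25 to -0.61) and -0.45 (-0.64 to -0.26). In cells whose T markers lead these were -0.12 and -0.05, so that Il21r is then about level between spleen and tumor. When cells with markers of another lineage were left out, they were -1.07, past 2-fold, and -0.12. Between labels Il21r gave 0.08 (-0.21 to 0.38) in thymus, -0.13 (-0.42 to 0.17) in spleen and 0.36 (0.13 to 0.58) in tumor. The tumor interval lies above 0, but in cells whose T markers lead the ratio of Il21r was -0.05. At equal depth 3.74% (16.5%), 4.68% (20.8%), 8.11% (11.6%), 6.64% (12.2%), 5.81% (44.5%) and 6.05% (47.7%) of CD8-positive cells held an Il21r UMI, with unthinned shares in brackets. Of the 17 melanoma-marker cells 0 held Il21r thinned and 5.88% unthinned.

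Il18r1, the chain that binds IL-18, stood at 8.76 CPM (32 UMIs) and 18.5 (234) in thymus, 47.1 (65) and 59.8 (438) in spleen, and 8.85 (59) and 9.19 (65) in tumor. The spleen is highest under both labels, the cKO-labelled thymus comes next, and both tumor libraries and the fl/fl-labelled thymus overlap at the bottom. Spleen over thymus, Il18r1 gave 2.43 (1.79 to 3.09) and 1.69 (1.46 to 1.93), and tumor over spleen -2.41 (-2.94 to -1.88) and -2.70 (-3.10 to -2.32), so that it is high in the spleen against both other tissues. Between labels the thymus gave 1.08 (0.54 to 1.66), past 2-fold, while the spleen gave 0.35 (-0.03 to 0.74) and the tumor 0.05 (-0.48 to 0.59). Under the stricter cell filter, which leaves 69 and 875 splenic cells, the splenic ratio of Il18r1 was 1.33, past 2-fold. In the thymus the ratio of Il18r1 was 0.88 (0.11 to 1.75) among the 220 and 918 cells without Dntt and Rag1 RNA. Among cells with that RNA it was 0.75 (-0.02 to 1.60), with 0 inside its interval. With every cell weighted equally it was 0.97, and each of these is short of 2-fold. In the same CD8-positive cells thinned it was 1.66, with an Il18r1 UMI in 0.849% (5.26%) and 2.57% (9.70%) of cells, unthinned in brackets.

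Il18rap, the accessory chain that lets Il18r1 signal, stood at 5.47 CPM (20 UMIs) and 4.90 (62) in thymus, 18.1 (25) and 26.6 (195) in spleen, and 6.00 (40) and 6.08 (43) in tumor. As with Il18r1, the spleen is high under both labels and thymus and tumor are low, and all neighbors within the low group overlap. Spleen over thymus, Il18rap gave 1.73 (0.82 to 2.65) and 2.44 (2.02 to 2.88), and tumor over spleen -1.59 (-2.35 to -0.81) and -2.13 (-2.64 to -1.65). In cells whose T markers lead the fl/fl-labelled fall of Il18rap was -0.75, short of 2-fold. Ratios of Il18rap between labels were -0.16 (-0.91 to 0.65), 0.56 (-0.05 to 1.22) and 0.02 (-0.64 to 0.68) in thymus, spleen and tumor, each with 0 inside. The splenic ratio of Il18rap reached 2-fold under the stricter cell filter, at 1.01, and among cells that stay CD8-positive after thinning, at 1.07, and the tumor ratio was 1.30 among such cells, on too few UMIs for a call. Il18rap and Il18r1 UMIs met in 5, 18, 1, 16, 8 and 7 CD8-positive cells from thymus to tumor, unthinned, which is 29.4%, 37.5%, 4.00%, 8.74%, 24.2% and 18.9% of the cells with Il18rap. Over all CD8-positive cells 5.26%, 9.70%, 6.49%, 9.88%, 14.2% and 11.1% held Il18r1. Thinned, Il18r1 and Il18rap met in 0, 1, 0, 6, 0 and 1 cells, too few to say whether the chains of the IL-18 receptor gather in the same cells, and unthinned shares also follow depth.

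Il12rb2, the signaling chain of the IL-12 receptor, stood at 18.1 CPM (66 UMIs) and 21.1 (267) in thymus, 12.3 (17) and 12.8 (94) in spleen, and 6.75 (45) and 9.19 (65) in tumor. The thymus is highest and the tumor lowest, but the intervals of all neighbors in this order overlap. Spleen over thymus, Il12rb2 gave -0.55 (-1.42 to 0.23) and -0.72 (-1.07 to -0.37), and tumor over spleen -0.87 (-1.70 to 0.03) and -0.48 (-0.96 to -0.01). No ratio of Il12rb2 between labels excluded 0, with 0.22 (-0.17 to 0.63), 0.06 (-0.70 to 0.90) and 0.44 (-0.13 to 1.03) in thymus, spleen and tumor, but in the same thymic cells thinned it was 1.23, past 2-fold.

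Counted together in CD8-positive cells, Il18r1 was the 1 of 10 members called higher under the cKO label in the thymus, beside 6.46% of all 13137 genes tested, and 0 of 10 were lower, beside 6.56%. In the spleen Il2rg was the 1 of 9 called higher (10.8% of 11507 genes) and 0 of 9 were lower (2.89%), with Il2ra below 20 UMIs. In the tumor 0 of 10 were higher (7.24% of 13270 genes) and Il15ra was the 1 of 10 that was lower (9.99%). These counts lie near the shares over all genes, so that in CD8-positive cells these genes pass 2-fold between labels about as often as other genes do. In cells without CD8 RNA, 4 of 10 were higher under the cKO label in the thymus (Il2rb, Il15ra, Il18r1 and Il18rap), beside 10.1% of all genes, and 1 of 8 in the spleen (Il2rg), beside 10.1%. In these thymic cells NK markers summed to 4.75 and 21.6 CPM and cycling markers to 947 and 571 CPM, and their part in these calls was not tested. In the tumor 3 of 7 were higher (Il2ra, Il2rg and Il21r, the last with 0 inside its interval), beside 5.79%. There 1 of 7 was lower (Il15ra), beside 988 of all 9874 genes tested. Macrophage markers also differ in these tumor cells without CD8 RNA, at 924 and 1677 CPM. In CD8-positive cells the median log2 ratios of the tested members were 0.19, 0.35 and 0.18 in thymus, spleen and tumor, beside -0.15, 0.18 and -0.15 over all genes. Scaling by the median of ratios shifts these label ratios by 0.18, -0.17 and 0.14, and the ratios of spleen over thymus under the fl/fl label and of tumor over spleen under the cKO label by 0.43 and 0.55.

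Between tissues more receptor genes passed 2-fold. Spleen over thymus under the fl/fl label, 6 of 10 were higher (Il2rb, Il7r, Il4ra, Il21r, Il18r1 and Il18rap), beside 8.58% of 10353 genes, and 1 of 10 was lower (Il2ra), beside 28.2%. Under the cKO label the same 6 and Il2rg, 7 of 10, were higher (11.6% of 13930 genes) and Il2ra, 1 of 10, was lower (13.4%). Most of these calls end once cells with Dntt or Rag1 RNA are set aside. Among the 220 and 918 thymic cells without Dntt and Rag1 RNA and splenic cells chosen alike, 1 of 10 was higher under the fl/fl label, beside 4.26% of 8097 genes (Il18r1, 1.47) and 2 of 10 under the cKO label, beside 10.4% of 12490 genes (Il2rb, 1.74, and Il18rap, 1.51). The calls of Il7r (0.63 and 0.49), Il4ra (0.90 and 0.81) and Il21r (0.51 and 0.51) ended under both labels, those of Il2rb (0.89) and Il18rap (0.30) under the fl/fl label and those of Il2rg (0.92) and Il18r1 (0.94) under the cKO label, and Il2rg turned to -0.48 under the fl/fl label. Tumor over spleen under the fl/fl label, Il2ra and Il15ra, 2 of 10, were higher (28.0% of 11932 genes) and Il2rg, Il7r, Il4ra, Il18r1 and Il18rap, 5 of 10, were lower (27.2%). Under the cKO label Il2ra, 1 of 10, was higher (21.1% of 13673 genes) and the same 5 of 10 were lower (35.3%). Here many genes of all kinds pass 2-fold, and the members' median ratios of -1.26 and -1.39 stand beside 0.03 and -0.36 over all genes. Spleen over thymus the medians were 1.52 and 1.27, beside -0.40 and -0.0039. Tissue, mouse, depth and library cannot be told apart in these ratios.

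Between cells with and without CD8 RNA, receptor genes passed 2-fold in the thymus and the tumor and none did in the spleen. In the fl/fl-labelled thymus 6 of 10 receptor genes (Il2rb, Il7r, Il4ra, Il21r, Il18r1 and Il18rap) were higher in CD8-positive cells (4.72% of 10848 genes) and 0 of 10 lower (2.11%). In the cKO-labelled thymus Il7r and Il21r, 2 of 10, were higher (4.10% of 13715 genes) and Il2ra, 1 of 10, was lower (6.09%). Il2ra gave -0.97 (-1.24 to -0.71) and -1.70 (-1.84 to -1.56) in the thymus libraries, low in CD8-positive cells under both labels, while Il7r gave 1.03 (0.61 to 1.47) and 1.02 (0.82 to 1.22). The count of 6 in the fl/fl-labelled thymus went to 3, with Il21r turning to -0.10, when the CD8 rule was applied to thinned cells, and the count of 2 in the cKO-labelled thymus went to 0 there and to between 1 and 4 in other settings. In the spleen 0 of 8 passed 2-fold either way under the fl/fl label (3.69% higher and 3.16% lower of 7588 genes) and 0 of 9 under the cKO label (3.85% and 2.93% of 11637). Il2rb stood in splenic cells without CD8 RNA at 237 CPM (199 UMIs) and 319 (510) and Il2rg at 245 (206) and 586 (938), near the levels of cells with it. Below 2-fold, Il18r1 was lower in CD8-positive than in CD8-negative cells of the fl/fl-labelled spleen, at -0.55 (-1.09 to -0.02), and Il18rap and Il12rb2 gave -0.72 (-1.58 to 0.14) and -0.80 (-1.85 to 0.24) there. In the cKO-labelled spleen Il18r1 gave 0.04 (-0.29 to 0.38).

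In the fl/fl-labelled tumor 6 of 10 (Il2rb, Il2rg, Il21r, Il18r1, Il18rap and Il12rb2) were higher in CD8-positive cells (6.70% of 12321 genes) and 0 of 10 lower (12.0%). In the cKO-labelled tumor 5 of 10 (Il2rb, Il15ra, Il21r, Il18r1 and Il12rb2) were higher (9.99% of 11631 genes) and Il2ra, 1 of 10, was lower (23.2%). Several of these calls rest on few CD8-negative UMIs. In the fl/fl-labelled tumor they were 2 for Il18r1, 1 for Il18rap and 4 for Il12rb2. In the cKO-labelled tumor they were 2 for Il15ra, 2 for Il18r1 and 1 for Il12rb2, and the interval of Il15ra holds 0. Il2rb gave 2.72 (2.42 to 3.04) and 2.62 (2.24 to 3.03) and Il21r 2.81 (2.11 to 3.61) and 2.12 (1.26 to 3.13), high in CD8-positive cells under both labels when all cells are counted. Il7r, at -0.93 (-2.02 to 0.18) and -0.97 (-2.11 to 0.35), and Il4ra, at 0.73 (0.08 to 1.44) and -0.31 (-1.10 to 0.58), did not pass 2-fold. In most tumor cells without CD8 RNA the T markers are outnumbered by melanoma and macrophage markers: T markers led in 13 of 112 and 13 of 49, though a CD3 or Trac UMI was found in 75.0% and 95.9% of these cells, and melanoma markers summed to 12829 and 11972 CPM. Among the cells whose T markers lead, the CD8-positive over CD8-negative ratio in the fl/fl-labelled tumor was -0.10 for Il2rb and -0.29 for Il2rg, which turns the direction of both. In the cKO-labelled tumor Il2rb gave 0.73 and Il21r 0.50 among such cells, which ends both calls, as all 5 calls there end, while in the fl/fl-labelled tumor Il21r and Il18r1 stayed past 2-fold, at 1.96 and 1.21. Without cells of other lineages, which leaves 3 and 4 CD8-negative cells, these were 0.27 and -0.88, and no receptor gene was called higher in either tumor library. Il2ra was lower in CD8-positive cells of both tumor libraries where T markers lead, at -3.33 and -4.71. Without cells of other lineages its ratios were -4.64 and -4.69, and neither was called.

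Within the thymus the receptor genes parted by stage markers. Dntt and Rag1, which act in rearrangement of antigen receptor genes, gave a UMI in 369 of 589 and 835 of 1753 CD8-positive cells. Il2ra was higher in those cells, at 62.3 against 28.4 CPM and 68.0 against 26.9 CPM, ratios of 1.13 (0.52 to 1.80) and 1.34 (1.06 to 1.62). Il2rb went the other way, at 29.2 against 139 CPM and 41.5 against 105 CPM, with -2.25 (-2.67 to -1.83) and -1.34 (-1.54 to -1.14). Il7r did so too, at 26.7 against 111 CPM and 53.0 against 133 CPM, with -2.06 (-2.52 to -1.61) and -1.33 (-1.51 to -1.15). The alpha chain of the IL-2 receptor thus marks thymic cells with Dntt or Rag1 RNA, and the beta chain and the IL-7 receptor mark those without. Il18rap gave -2.55 (-4.12 to -1.12) and -2.18 (-3.10 to -1.33) and Il18r1 -1.48 (-2.57 to -0.37) and -1.60 (-2.01 to -1.20). Il2rg gave -1.31 (-1.52 to -1.10) and -0.89 (upper bound -0.79), Il4ra -1.18 (-1.74 to -0.62) and -1.11 (-1.39 to -0.84), and Il21r -1.21 (-1.74 to -0.66) and -1.15 (-1.43 to -0.87). All of these are lower beside Dntt or Rag1 RNA, while Il12rb2, at 0.11 (-0.75 to 1.05) and 0.46 (0.08 to 0.85), is not. Cells with that RNA are also deeper, with median totals of 5930.0 against 3461 UMIs and 6357 against 4902. In thymic cells without CD8 RNA the split of Il2ra and Il2rb had the same direction: Il2ra stood at 114 against 52.8 CPM and 183 against 90.8 CPM, and Il2rb at 12.0 against 31.0 CPM and 17.7 against 135 CPM. Il2rg did not split in the fl/fl-labelled library there, at -0.08 (-0.53 to 0.41) against -1.01 (-1.23 to -0.78) in the other, and Il12rb2 was lower beside that RNA in both, at -1.39 (-2.26 to -0.43) and -0.62 (-1.06 to -0.16). Since CD8-positive cells with Dntt or Rag1 RNA are 369 of 589 under the fl/fl label and 835 of 1753 under the cKO label, the mix of stages differs between the thymus libraries, and the ratios of Il2rb and Il2rg between labels turn in cells without Dntt and Rag1 RNA, to -0.40 (-0.69 to -0.10) and -0.28 (-0.45 to -0.10), while in cells with that RNA they were 0.51 (0.15 to 0.88) and 0.14 (-0.01 to 0.30).

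**Figure D3:**
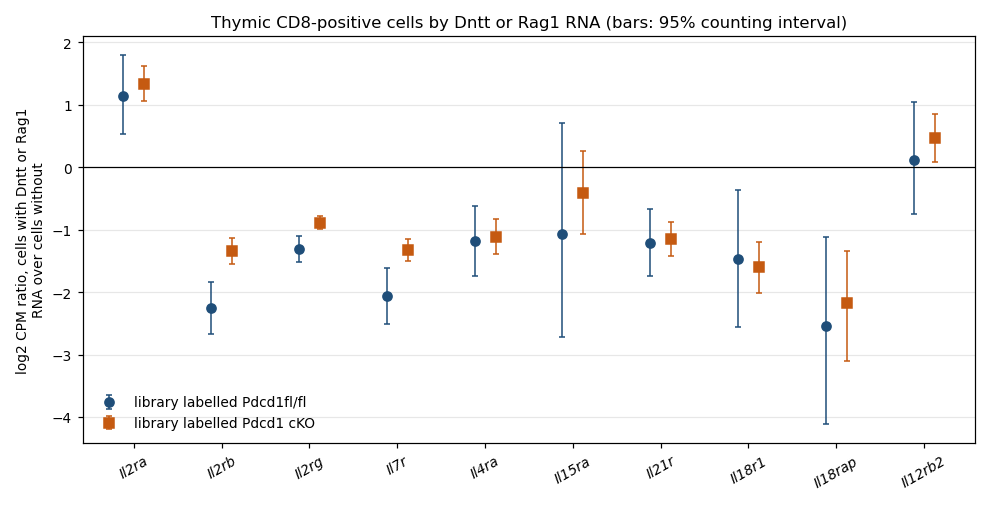
Log2 CPM ratios in thymic CD8-positive cells with over without Dntt or Rag1 RNA, with 95% counting intervals.

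RNA of Mki67 or Top2a, which mark dividing cells, was found in 347 of 589 and 761 of 1753 thymic CD8-positive cells. There Il7r was lower beside it, at -1.28 (-1.73 to -0.83) and -1.29 (-1.48 to -1.11), and so was Il2rb, at -1.36 (-1.78 to -0.95) and -0.94 (-1.14 to -0.74). In the tumor, where 116 of 344 and 142 of 512 cells held such RNA, Il2rb was higher beside it, at 276 against 189.9 CPM and 449.7 against 395 CPM, ratios of 0.54 (0.39 to 0.68) and 0.19 (0.08 to 0.30). Il2rb is thus lower beside dividing-cell RNA in the thymus and slightly higher beside it in the tumor, where both ratios are short of 2-fold. This split was not made in the tumor cells whose T markers lead. RNA of Ccr7 or Lef1, found in naive and central memory T cells, split the cKO-labelled tumor: Il2rb stood at 264 against 483 CPM, a ratio of -0.87 (upper bound -0.74), while in the fl/fl-labelled tumor it gave -0.25 (-0.40 to -0.11). Splenic Il2rb did not follow this split, at -0.04 (-0.36 to 0.28) and -0.04 (-0.15 to 0.07), and splenic Il21r was higher beside Ccr7 or Lef1, at 0.74 (0.14 to 1.39) and 0.64 (0.38 to 0.91). RNA of Ccl5 or Nkg7, effector genes, split the thymus: Il2rb was higher beside it, at 1.61 (0.98 to 2.30) and 1.32 (0.92 to 1.75). In the tumor 336 of 344 and 512 of 512 cells held Ccl5 or Nkg7 RNA, so no split could be made.

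Marker lists of other cell types move with some of these results, and their part in the results was not tested. In CD8-positive cells all 5 melanoma markers were found in both tumor libraries and summed to 6929.8 and 3949 CPM, led by Dct and Pmel. All 7 macrophage or monocyte markers were found there too, at 74.4 and 486 CPM, led by Lyz2 in both. Melanoma RNA thus weighs more in the fl/fl-labelled tumor and macrophage RNA more in the cKO-labelled one, where Il2rb, Il2rg and Il21r ratios moved once such cells were set aside. Connective tissue markers, 4 in the list, summed to 70.3, 11.5, 0.724, 8.33, 137 and 0.565 CPM, led by Dcn in the thymus and by Col1a1 in the fl/fl-labelled tumor, where they stand far above the cKO-labelled tumor and where Il15ra is higher too. Immature thymocyte markers (Dntt, Rag1, Rag2, Ptcra and Cd24a, all 5 found in the thymus) summed to 725, 508, 3.62, 8.19, 24.6 and 8.34 CPM from thymus to tumor, led by Dntt in the thymus, and Rag1 and Rag2 are at 0 in spleen and tumor. Cycling markers, all 4 found, summed to 839, 463, 42.7, 32.5, 226 and 276, and effector or memory markers, all 5 found, to 1215, 1787, 5219, 10040.5, 1731 and 4954, led by Ccl5 or Gzma or Nkg7. Gamma delta T markers, 3 of 4 in the files, summed to 237, 172, 6.52, 12.6, 0.750 and 0.989, with Trdc leading in the thymus, and NK markers to 9.85, 13.0, 21.0, 46.3, 43.8 and 127, with Ncr1 at 0 in the fl/fl-labelled thymus and spleen. CD4 and regulatory T cell markers stayed at 2.46, 4.34, 0.724, 6.69, 5.70 and 5.23 CPM in CD8-positive cells, B cell markers at 14.0, 6.55, 13.0, 14.9, 3.15 and 2.54, and dendritic markers at 2.74, 2.61, 5.07, 5.19, 2.10 and 2.83. Granulocyte progenitor markers were at 0 in CD8-positive cells of the fl/fl-labelled thymus and spleen and at 83.6 CPM, all 4 found, in the cKO-labelled spleen, led by Mpo. The naive or central list (Ccr7, Lef1 and Tcf7, all found) summed to 863, 947, 826, 730.3, 224 and 66.3.

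Other genes of these pathways, 40 in 6 lists, were read in the same CD8-positive sums. Of the 10 ligands 2, 2 and 3 reached 20 UMIs between labels in thymus, spleen and tumor. Il18, the ligand of Il18r1, was lower under the cKO label in thymus, at 12.9 CPM (47 UMIs) and 4.50 (57), and spleen, at 28.2 (39) and 11.5 (84), with ratios of -1.51 (-2.10 to -0.93) and -1.30 (-1.86 to -0.71). Il15, the ligand of Il15ra, was higher in the tumor, at 1.20 (8) and 3.67 (26) and 1.61 (0.43 to 2.97). In the tumor the ligand and its alpha chain thus go opposite ways between labels. The Il15 ratio rests on 8 and 26 UMIs, and the call of Il15ra ends once cells of another lineage are left out. Macrophage markers differ in these cells too, at 74.4 and 486 CPM. Of the 5 other chains, 3 of 3 tested were higher in the tumor under the cKO label, beside 7.24% of all genes: Crlf2 at 1.06 (0.81 to 1.31), Il12rb1, the partner of Il12rb2, at 1.46 (0.83 to 2.14), and Il18bp, which encodes a soluble inhibitor of IL-18, at 1.74 (1.44 to 2.05). Il18bp stood there at 17.2 (115) and 57.5 (407) CPM. In tumor cells without CD8 RNA 4 of 4 tested chains were higher too, 3 of them with intervals above 0, beside 5.79% of all genes. Macrophage markers are also higher under the cKO label, so that these ratios cannot be assigned to CD8 T cells. Of the 10 kinase and STAT genes, 1 was higher under the cKO label in the thymus, and 0 passed 2-fold between labels in spleen or tumor. Jak1 and Jak3, the kinases bound to these receptors, were at 0.12 (-0.18 to 0.41) and 0.83 (0.43 to 1.24) in the tumor. Of the 4 feedback genes Socs1 was higher in the spleen (1.22 (0.69 to 1.80)) and Socs3 lower in the tumor (-1.33 (-1.84 to -0.84)). None of the 6 IL-18 signaling genes passed 2-fold between labels. Beside these counts, 6.46%, 10.8% and 7.24% of all genes were higher in thymus, spleen and tumor, and 6.56%, 2.89% and 9.99% were lower. Of the 5 target genes 2 of 5 were higher in thymus, 3 of 5 in spleen, and 1 of 5 higher and 1 of 5 lower in tumor. Gzmb was higher in all 3 tissues, at 2.69 (1.79 to 3.77), 1.45 (0.70 to 2.32) and 1.45 (1.39 to 1.51), and Ifng in thymus and spleen, at 1.38 (0.73 to 2.11) and 4.45 (3.40 to 5.77). Bcl2, a survival gene downstream of the IL-7 receptor, was lower in the tumor at -2.19 (-2.95 to -1.49).

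Tumor over spleen, many signaling genes were lower, as were Il7r, Il4ra and Il2rg. Of the 10 kinase and STAT genes 5 were lower and 0 higher under the fl/fl label, and 7 lower and 1 higher (Jak3) under the cKO label, while of all genes 27.2% and 35.3% were lower and 28.0% and 21.1% higher. Jak1 stood at 324 and 362 CPM in the spleen and 26.8 and 29.1 in the tumor, ratios of -3.59 (-3.85 to -3.34) and -3.64 (-3.85 to -3.43). Stat5b, one of the STAT genes used by IL-2 and IL-7, gave -2.09 (-2.58 to -1.60) and -2.43 (-2.82 to -2.05). Both are far lower in the tumor under either label when all CD8-positive cells are counted. The pathway genes were not read in the cells whose T markers lead, where some falls of the receptor genes were smaller. Of the 4 feedback genes 2 were lower under the fl/fl label and 3 under the cKO label, with 1 higher (Socs2) under each. Under the fl/fl label the interval of Socs2 holds 0. Socs3 gave -2.79 (-3.14 to -2.44) and -4.72 (-5.16 to -4.31). Of the 6 IL-18 signaling genes 3 and 4 were lower, and Nfkb1 gave -3.11 (-3.39 to -2.84) and -3.29 (-3.56 to -3.04). Among the 5 targets, Bcl2 gave -3.33 (-3.71 to -2.96) and -6.12 (-6.82 to -5.51) and Gzmb 5.33 (4.61 to 6.17) and 5.33 (5.14 to 5.53). Bcl2 is thus lower in the tumor, as Il7r is, and Gzmb is higher. Of the 5 targets 2 were higher and 2 lower under the fl/fl label, and 1 was higher and 4 lower under the cKO label. A link between Bcl2 and Il7r was not tested. Spleen over thymus, 2 of 10 kinase and STAT genes were higher under the fl/fl label (Jak3 and Stat4) and 0 of 10 under the cKO label, beside 8.58% and 11.6% of all genes.

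Several of the receptor genes lie side by side in the genome. Il2ra and Il15ra are neighbors on chromosome 2, 12096 bases apart, Il4ra and Il21r on chromosome 7, 19756 apart, and Il18r1 and Il18rap on chromosome 1, 14507 apart, each pair on the plus strand with no coding gene between. Il2ra and Il15ra do not share a pattern, since Il2ra is highest in the thymus and Il15ra in the fl/fl-labelled tumor, while Il18r1 and Il18rap both peak in the spleen. Exons of Il12rb2 overlap those of Serbp1 on the opposite strand, Il4ra overlaps Gm44876 and Il2rb overlaps Gm62993 in the same way. Whether the counts keep strands apart is not given in the sources used here, and the part of the overlapping genes in the UMIs of Il12rb2, Il4ra and Il2rb was not tested.

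Promoters are shown for Il2rb and Il18rap, which share a pattern up to the spleen and part in the tumor. Both are higher in spleen than thymus and low beside Dntt or Rag1 RNA, as are Il7r, Il4ra, Il21r and Il18r1, but over all CD8-positive cells Il18rap is more than 2-fold lower in tumor than spleen and Il2rb stays within 2-fold. Each is the 250 bases before the start of the Ensembl canonical transcript (GENCODE vM39, GRCm39), 5′ to 3′ on the gene's own strand, chr15:78379472-78379721 on the minus strand for Il2rb and chr1:40554272-40554521 on the plus strand for Il18rap, and neither holds an annotated exon. Searched on both strands were TTCNNNGAA (STAT family), TGTGGT (Runx family) and GGTGTGA (T-box family), none of which contains another, and capitals mark matches.
Il2rb: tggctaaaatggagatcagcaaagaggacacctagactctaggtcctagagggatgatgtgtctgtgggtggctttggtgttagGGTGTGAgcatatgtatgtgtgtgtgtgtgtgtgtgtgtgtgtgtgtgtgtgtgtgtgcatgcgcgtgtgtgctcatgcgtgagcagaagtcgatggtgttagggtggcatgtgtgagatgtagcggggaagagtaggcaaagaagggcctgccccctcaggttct
Il18rap: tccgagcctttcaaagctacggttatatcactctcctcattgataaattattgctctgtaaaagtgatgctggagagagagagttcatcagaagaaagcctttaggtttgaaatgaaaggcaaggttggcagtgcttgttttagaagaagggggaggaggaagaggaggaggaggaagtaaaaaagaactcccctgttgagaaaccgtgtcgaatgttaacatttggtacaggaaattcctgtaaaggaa
Il2rb holds 1 match, GGTGTGA from base -166 to base -160, and Il18rap holds none of the 3 motifs in this window. Of 21757 promoters of protein-coding genes of the same length, 7.70% hold TTCNNNGAA, 13.0% TGTGGT and 3.23% GGTGTGA. The same windows of Il7r (2 matches) and Il18r1 (3 matches) overlap exons of other transcripts and are not printed.

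For each receptor gene the most similar genes were sought over 12 sums, CD8-positive and CD8-negative cells of the 6 libraries, by Pearson r of log2(CPM + 1) among 12932 genes with at least 100 UMIs. Il7r was most like Gm26740 (0.990), Gtf2i (0.989) and Arhgef18 (0.989), and Il21r most like Ms4a4b (0.989), Ctsw (0.985) and Hcst (0.977). Il2rg came closest to Bin2 (0.986), Inpp1 (0.983) and Itgal (0.975), and Il2rb to Wdr95 (0.972), Pglyrp1 (0.966) and Tmsb4x (0.965). Klk8 appears for both IL-18 receptor chains, with Il18r1 (0.967, after Ctla2a at 0.973 and F2r at 0.972) and with Il18rap (0.969, before Gm29243 at 0.967 and Nop53 at 0.965). Il4ra was nearest to Gimap8 (0.980), Samd3 (0.973) and Ust (0.973), Il2ra to Tmem121 (0.984), Cenpk (0.961) and Camk2a (0.960), and Il12rb2 to Zfx (0.966), Uhrf2 (0.966) and E330020D12Rik (0.958). Il15ra had the weakest matches, with Hsd17b7 (0.860), Lclat1 (0.860) and Pkp1 (0.859). The 12 sums share libraries and depth in pairs, and these values describe likeness only.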

How the data were processed

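Single-cell RNA of magnetically isolated CD8+ T cells was measured in 6 PIPseq v3 libraries. The deposited matrices hold raw UMI counts per gene and barcode, which the authors made with the PIPseq pipeline v3.2 on GRCm39; the submitters' processing notes also name Seurat 4.3.0, and the annotation release is not given in the sources used here. Cells were kept by the authors' filter (500 or more genes and 1000 or more UMIs, with mitochondrial UMIs of 13 genes up to 20%). Python 3.11.15, NumPy 2.4.6 and SciPy 1.17.1 summed UMIs over CD8-positive and CD8-negative cells; matplotlib 3.10.9 drew the figures. CPM carry exact Poisson 95% intervals, log2 ratios exact conditional binomial intervals and shares Clopper-Pearson intervals. A gene at 0 UMIs was set to a floor of 3 UMIs, so that its ratio is a bound. CD8-positive sums held 1380788 UMIs in the fl/fl-labelled spleen, the least, where 3 UMIs are 2.17 CPM, and 12663092 in the cKO-labelled thymus, the most. Thinning drew 1000 UMIs per cell with a fixed seed, once with the CD8 rule applied afterwards and once with the CD8 groups kept. Ratios and intervals were tested on simulated data, drawn as independent Poisson counts per gene. The intervals assume the same, so this test cannot show how clustering of UMIs in few cells affects them. No test between groups was run, since each group has 1 library. Alternatives covered scaling, the cell filter, the CD8 rule, thinning, other lineages, stage markers, T markers and equal weight per cell. No library was left out, and 1 gene of the pathway lists is not reported here by name. The members and lists were chosen with earlier results of these data known.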

Additional observations from a re-analysis of the deposited data

How the results depend on the processing

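Of 126 log2 ratios of the receptor genes, 1286 values came from alternatives: 989 lay within the main interval, 1153 kept the sign and 11 turned a called ratio the other way, and 19 of the 52 called ratios stayed at least 2-fold in every alternative. Called ratios of CD8-positive over CD8-negative cells reversed as follows. With cells thinned to 1000 UMIs and the CD8 rule applied after thinning, which moves cells that lost their CD8 UMIs into the CD8-negative group (826 instead of 478 cells in the fl/fl-labelled thymus), Il21r in the fl/fl-labelled thymus went from 1.94 to -0.10, and Il12rb2 from 2.19 to -0.45 in the fl/fl-labelled and from 2.96 to -0.10 in the cKO-labelled tumor. With the same cells thinned and the CD8 groups of full depth kept, Il21r in that thymus did not turn, Il12rb2 in the fl/fl-labelled tumor went to -0.0339 and Il12rb2 in the cKO-labelled tumor had no value. With cells whose T markers lead (13 CD8-negative cells per tumor library), Il2rb went from 2.72 to -0.10 and Il2rg from 1.91 to -0.29 in the fl/fl-labelled tumor, and Il18r1 from 1.96 to -0.53 in the cKO-labelled one. Without cells with other lineage markers (3 CD8-negative cells left), Il2rb went to -0.53, Il2rg to -0.32 and Il18r1 from 3.59 to -0.88 in the fl/fl-labelled tumor. With every cell weighted equally, Il15ra in the cKO-labelled tumor went from 1.15 to -0.0173. Counts of members at 2-fold moved by more than 1.5 times as follows, given as main count then count in the alternative. Thinned with the CD8 rule applied afterwards: cKO over fl/fl label higher 1 to 3 in the thymus and 1 to 2 in the spleen, lower 1 to 0 in the tumor; spleen over thymus lower 1 to 0 under the fl/fl label, higher 7 to 4 and lower 1 to 2 under the cKO label; tumor over spleen higher 2 to 0 and 1 to 0 under the fl/fl and cKO labels; CD8-positive over CD8-negative higher 6 to 3 and lower 0 to 1 in the fl/fl-labelled thymus, higher 2 to 0 in the cKO-labelled thymus, lower 0 to 1 in the fl/fl-labelled spleen, higher 6 to 1 in the fl/fl-labelled tumor, higher 5 to 0 and lower 1 to 0 in the cKO-labelled tumor. Thinned with the CD8 groups kept: label higher 1 to 3 in the thymus, lower 1 to 0 in the tumor; spleen over thymus lower 1 to 0 under the fl/fl and 1 to 2 under the cKO label; tumor over spleen higher 2 to 0 and 1 to 0; CD8-positive over CD8-negative lower 0 to 1 in the fl/fl-labelled and higher 2 to 1 in the cKO-labelled thymus, higher 6 to 3 in the fl/fl-labelled tumor, higher 5 to 2 and lower 1 to 0 in the cKO-labelled tumor. Equal weight per cell: label higher 1 to 0 in the thymus; CD8-positive over CD8-negative lower 0 to 1 in the fl/fl-labelled thymus, higher 2 to 1 and lower 1 to 2 in the cKO-labelled thymus, lower 0 to 1 in the fl/fl-labelled tumor, higher 5 to 3 and lower 1 to 3 in the cKO-labelled tumor. Median of ratios: label higher 1 to 2 in the thymus, 1 to 0 in the spleen and 0 to 1 in the tumor; CD8-positive higher 2 to 4 in the cKO-labelled thymus. Total without mitochondrial, ribosomal and Malat1 UMIs: label higher 1 to 2 in the thymus and 1 to 0 in the spleen; CD8-positive higher 2 to 4 in the cKO-labelled thymus. Without Dntt or Rag1 cells: label higher 1 to 0 in the thymus; spleen over thymus higher 6 to 1 under the fl/fl and 7 to 2 under the cKO label. Strict cell filter: label higher 1 to 2 in the spleen; spleen over thymus lower 1 to 2 and tumor over spleen higher 2 to 0 under the fl/fl label; CD8-positive lower 0 to 1 in the fl/fl-labelled thymus. At least 2 CD8 UMIs: spleen over thymus lower 1 to 2 under the fl/fl label; CD8-positive lower 0 to 1 in the fl/fl-labelled thymus, higher 2 to 4 and lower 1 to 2 in the cKO-labelled thymus, lower 0 to 1 in the fl/fl-labelled spleen and lower 1 to 2 in the cKO-labelled tumor. Without cells with other lineage markers: label higher 0 to 1 and lower 1 to 0 in the tumor; tumor over spleen higher 2 to 0 under the fl/fl label; CD8-positive lower 0 to 1 in the fl/fl-labelled thymus, higher 6 to 0 in the fl/fl-labelled tumor, higher 5 to 0 and lower 1 to 0 in the cKO-labelled tumor. T markers leading: tumor over spleen lower 5 to 3 under the fl/fl label; CD8-positive higher 6 to 2 and lower 0 to 2 in the fl/fl-labelled tumor, higher 5 to 0 and lower 1 to 2 in the cKO-labelled tumor. The cause was not tested. Alternatives by T markers, by equal weight, by thinning with the CD8 groups kept and, for spleen over thymus, without Dntt or Rag1 cells were chosen after seeing the data, and ratios with too few UMIs to give a value under an alternative were left out there. No paired analysis was possible because each group has 1 library. Intervals cover counting alone, so that differences between mice, labels and libraries cannot be told apart.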
